A study of Mus musculus with 12 samples.

Results

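Neurofilament and Tubb3 messages were followed in mouse dorsal root ganglia, with and without sciatic nerve injury, in RNA pulled down on sensory neuron ribosomes and in the input. The members were chosen by transcript ID, 1 transcript for each of Nefl, Nefm, Nefh and Tubb3, and all 4 were present among the 101744 transcripts of the deposited table. They are ENSMUST00000022639.8 (Nefl), ENSMUST00000022638.6 (Nefm), ENSMUST00000093369.5 (Nefh) and ENSMUST00000071134.4 (Tubb3). All mice carried RPL22HA+/+;Advillin-Cre+, so that Cre under Advillin, a gene of peripheral sensory neurons, turned on an HA tag on the ribosomal protein RPL22. Anti-HA immunoprecipitation (IP) then recovers RNA attached to tagged ribosomes. The 12 samples fall into 4 groups of 3, which are uninjured input, injured input, uninjured IP and injured IP. Input is labelled as total RNA, although its extraction text describes the immunoprecipitation. Mouse age, time after injury and pooling are not stated in the labels, and no pulldown from untagged mice was analysed here.

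Neurofilaments are the intermediate filaments of neurons. Nefl, Nefm and Nefh encode their light, medium and heavy subunits, which assemble together, fill the axon and set its calibre, and are most abundant in large myelinated sensory neurons. Tubb3 encodes a neuronal beta-tubulin of the microtubules, along which axonal cargo moves. As background, cutting a peripheral axon is known to lower neurofilament messages in sensory neurons while tubulin messages are kept up or raised. In the RefSeq annotation of GRCm38.p6 Nefl and Nefm lie on the same chromosome, with 1 annotated gene between them and 0 protein-coding ones.

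The samples held between 190594 and 1685756 estimated counts, and the IP samples were the shallow ones. Totals within a group ranged by 0.0374% to 0.449% of their mean, and the labels do not say whether the 3 came from separate animals. For the 4 transcripts the 3 samples of a group never differed beyond counting noise. The lowest of 16 chi-square p-values, a description of counting noise over 3 samples and not an exact test of conditions, was 0.151 (Nefl in uninjured IP). In input the 3 samples varied less than counting alone would give, for all 4 transcripts. For Nefl in uninjured input the coefficient of variation was 0.387%, against 2.46% from counting. In IP some sets lay above counting and others below. Over 9959 transcripts, edgeR's common biological coefficient of variation was 35.6%, a value pooled over all of them. The agreement seen for these 4 thus cannot be taken to hold for the whole table, and whether the 3 are separate samples is not settled. They were summed and counted as 1 sample per group, so the differences between conditions have no check by replicates. Intervals are 95% counting intervals, which take in counting error alone, because each group is 1 summed count. PCR copies are not independent molecules, so the intervals can be too narrow even for counting error. Levels are given as scaled CPM, counts per 1000000 after TMM scaling across the 4 groups. A difference was counted as a change where it was at least 2-fold, its interval did not reach 1 and the samples of the compared groups did not overlap. If the 3 samples are portions of 1 library, their separation from another group is no check across animals.

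**Figure D1:**
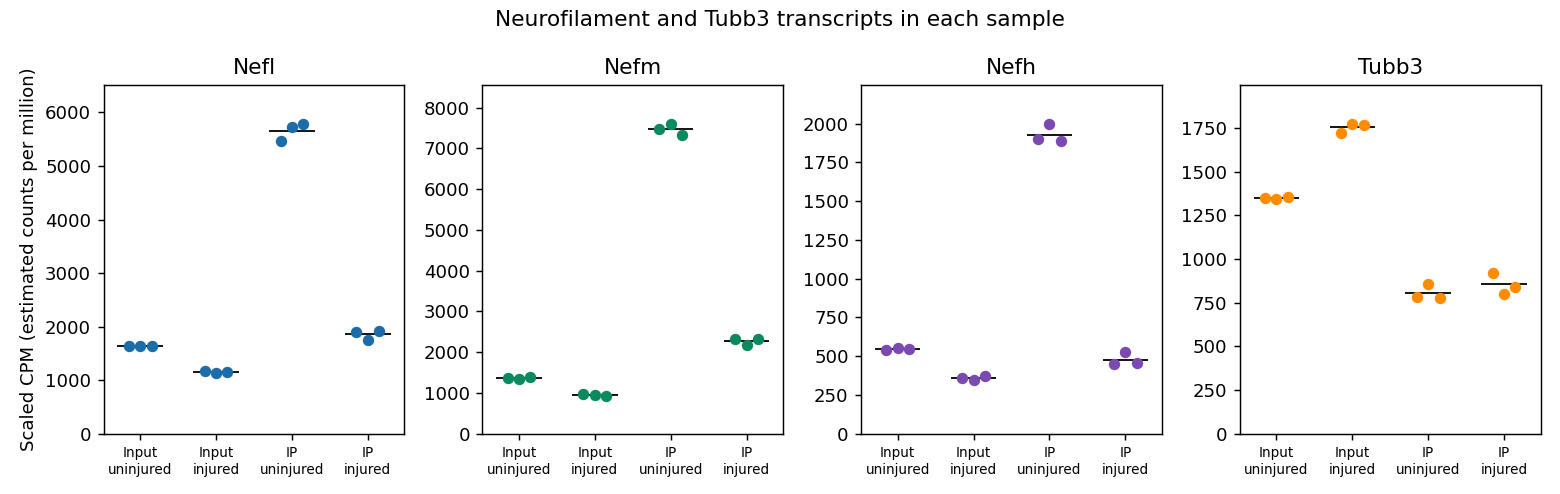
Scaled CPM (linear axis from 0) of each transcript in every sample, with 1 point per sample and a line at the mean of 3. Nefl, Nefm and Nefh were highest in uninjured IP and lower in every injured IP sample. The Tubb3 points of the IP groups overlap, and its injured input points lie above the uninjured ones. Heights on the IP side against the input side depend on the scaling.

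Ribosome-bound RNA held far less of all the neurofilament transcripts after injury. Nefl, the light subunit around which the filament assembles, had 1902, 1987 and 2013 estimated counts in the uninjured IP samples and 646, 593 and 651 in the injured ones. Every injured sample was below every uninjured one, and even the closest pair of samples differed 2.84-fold in scaled CPM. The summed level fell from 5662 to 1860.1 scaled CPM, 3.04-fold (interval 2.89 to 3.21).

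Nefm, the medium subunit, had 2603, 2636 and 2545 counts in uninjured IP and 784, 738 and 786 in injured IP. Its groups were likewise apart, by at least 3.16-fold between any pair of samples. Its level fell from 7467 to 2271 scaled CPM, 3.29-fold (3.14 to 3.45). Nefh, the heavy subunit whose long tail projects from the filament, had the fewest counts, 661, 693 and 656 in uninjured IP and 152, 179 and 154 in injured IP. It fell 4.04-fold (3.66 to 4.47), from 1928 to 477 scaled CPM. Its injured samples had a coefficient of variation of 9.33%, the widest of the 16 sets, against 7.86% from counting alone.

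Tubb3 did not share this fall. Without injury its IP samples held 273, 297 and 270 counts, and with injury 312, 271 and 285. The groups overlapped, and the ratio of injured to uninjured was 1.06 (0.963 to 1.17). Counting error alone leaves room for a level 1.17 times as high after injury, but not for a fall near that of the neurofilaments. Variation between animals is not in that interval. Under the alternative settings given below, the ratio ranged from 0.992 to 1.23.

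Summed over the 3 genes, the neurofilament transcripts made up 2.47% of all IP counts in uninjured ganglia (exact interval 2.43% to 2.51%). In injured ganglia they made up 0.819% (0.796% to 0.843%). This share needs no scaling between libraries. It is still affected by what else the library holds, and the 2 most abundant IP transcripts alone took 24.2% of the uninjured and 17.6% of the injured counts.

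In IP, 3 of the 4 members were thus counted as lower with injury, against 10.9% of the 8041 compared transcripts. Large changes were common in this comparison, and 22.2% of transcripts were counted in either direction. The median log2 ratio of the 4 members was -1.66, beside -0.09 for all compared transcripts. Of all compared transcripts, 10.9% had a log2 ratio below that of Nefl (-1.61), 9.89% below that of Nefm (-1.72) and 6.98% below that of Nefh (-2.01). The neurofilaments therefore lie in the lower tail without being its extreme, while Tubb3, at 0.08, sits close to the middle.

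**Figure D2:**
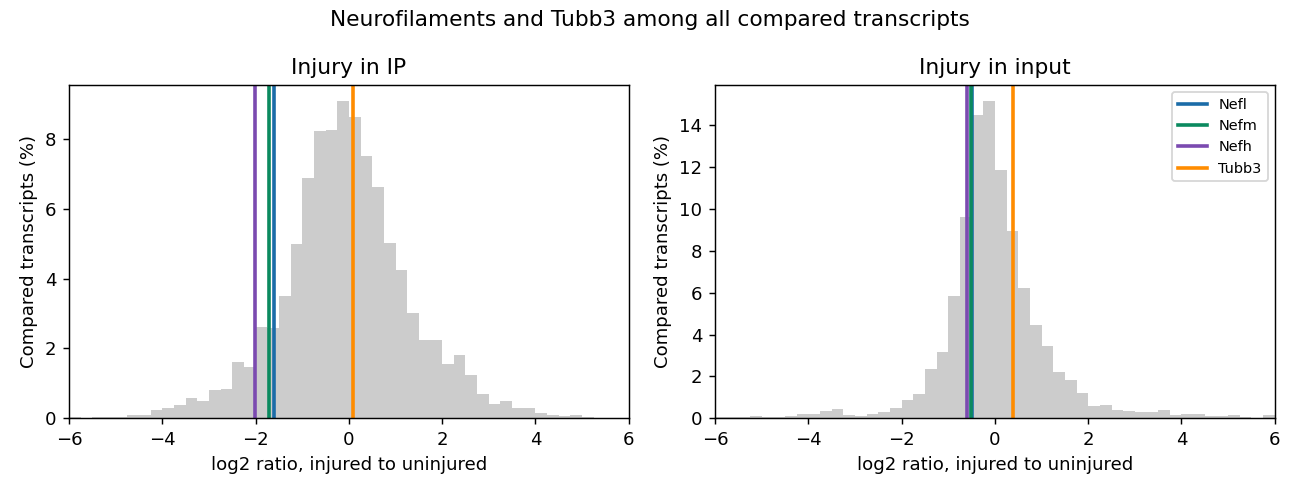
Share of all compared transcripts (%, grey bars, 8041 in IP and 8953 in input) by log2 ratio of injured to uninjured, with vertical lines at the 4 members. Ratios beyond the axis are in the end bars. In IP the neurofilament lines lie near -1.61, -1.72 and -2.01 and Tubb3 at 0.08, and in input the neurofilament lines lie closer to 0 and the Tubb3 line farther from it, at 0.38.

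In the input the neurofilament transcripts were also lower after injury, by smaller amounts than in IP. Nefl had 1652, 1665 and 1659 estimated counts in uninjured and 1066, 1036 and 1046 in injured input. The injured samples were all lower, and the level was 1.42-fold lower (1.35 to 1.48), at 1158 against 1639 scaled CPM. Nefm had 1381, 1367 and 1409 counts without injury and 877, 872 and 848 with it, a level 1.43-fold lower (1.36 to 1.51). Nefh had 544, 557 and 554 counts without injury and 327, 314 and 336 with it, a level 1.52-fold lower (1.40 to 1.64). For all these subunits the uninjured and injured samples did not overlap. The share of all compared transcripts with such separation was not worked out, in input or in IP.

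Tubb3 went the other way in the input, and by more than in IP, from 1368, 1359 and 1369 counts without injury to 1560, 1608 and 1602 after it. These groups did not overlap either, and the level was 1.30 times as high after injury (1.25 to 1.36). Input holds RNA of all cells of the ganglion, so fewer neurons and less RNA per neuron cannot be told apart there.

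With the 2-fold rule, 0 of the 4 members were counted as changed in input, against 16.4% of 8953 compared transcripts. At 1.5-fold only Nefh of the members was counted, where 2483 of 8953 transcripts were counted. The median log2 ratio of the members was -0.51, beside -0.10 for all compared transcripts. Of all compared transcripts, 25.9% lay below Nefl, 25.2% below Nefm and 21.7% below Nefh, and 27.1% lay above Tubb3. When the 3 samples were taken as replicates, edgeR's quasi-likelihood test with Benjamini-Hochberg adjustment gave adjusted p = 0.00019 for Nefl, 6.9e-05 for Nefm, 0.00064 for Nefh and 0.0075 for Tubb3. In this comparison edgeR called 900 of 9959 transcripts, all 4 members among them. DESeq2 on the same samples called 463 transcripts, among them the 3 subunits, and gave Tubb3 an adjusted p of 0.126. These p-values measure only the spread between the 3 samples of a group, which may be technical.

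**Figure D3:**
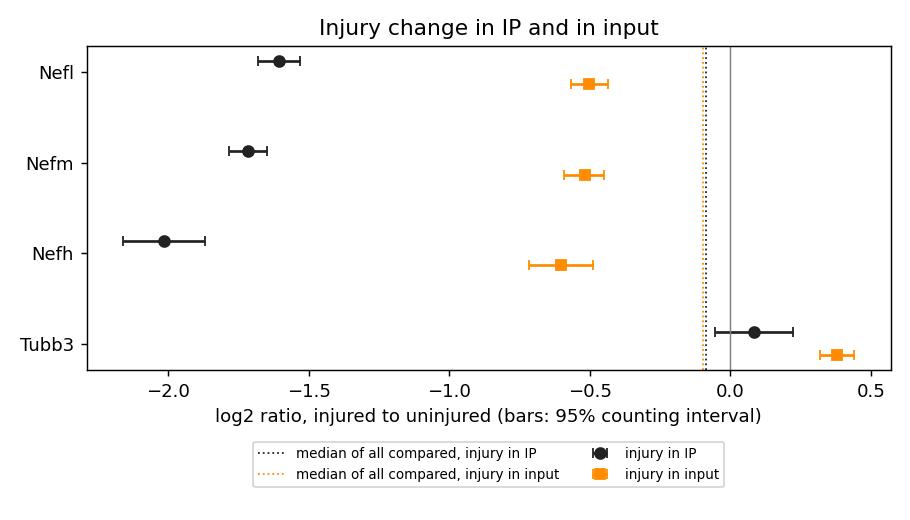
Log2 ratio of injured to uninjured for each transcript in IP (circles) and input (squares), with 95% counting intervals and dotted lines at the medians of all compared transcripts. The neurofilament circles lie more than 1 log2 unit to the left of their squares, while the Tubb3 points lie above 0, with the IP interval reaching 0.

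The injury difference was larger in ribosome-bound RNA than in input for each subunit. On the log2 scale the effect in IP minus that in input was -1.10 for Nefl (-1.20 to -1.01), -1.20 for Nefm (-1.30 to -1.10) and -1.41 for Nefh (-1.60 to -1.23). The ratio of IP to input was thus 2.15-fold, 2.29-fold and 2.66-fold lower in injured than in uninjured ganglia. All 3 subunits, of the 4 members, passed the rule of at least 1 log2 unit with an interval that excludes 0, against 10.4% of 4928 transcripts counted as lower. For Tubb3 the difference was -0.29 (-0.44 to -0.15), which did not reach that size. With library totals alone in place of TMM factors the differences were smaller, and Nefl at -0.92 no longer reached 1.

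Count ratios within a sample compare the genes with each other and need no scaling. They show how unequally the genes changed, not their levels, since counts are not per length. In uninjured IP there were 6.97, 6.70 and 7.44 Nefl counts for each Tubb3 count in the 3 samples, and in injured IP 2.07, 2.19 and 2.28. The ratio fell 3.23-fold (2.89 to 3.60). The Nefm to Tubb3 ratio fell from 9.27 to 2.66, 3.49-fold (3.13 to 3.88), and the Nefh to Tubb3 ratio from 2.39 to 0.559, 4.28-fold (3.72 to 4.92).

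In input the ratio to Tubb3 went from 1.21 to 0.660 for Nefl, from 1.01 to 0.545 for Nefm and from 0.404 to 0.205 for Nefh. These were 1.84-fold (1.73 to 1.96), 1.86-fold (1.75 to 1.99) and 1.97-fold (1.80 to 2.16) lower, and none of the injured input samples overlapped the uninjured ones. The balance between the neurofilament and the microtubule transcript thus differed with injury in both fractions.

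**Figure D4:**
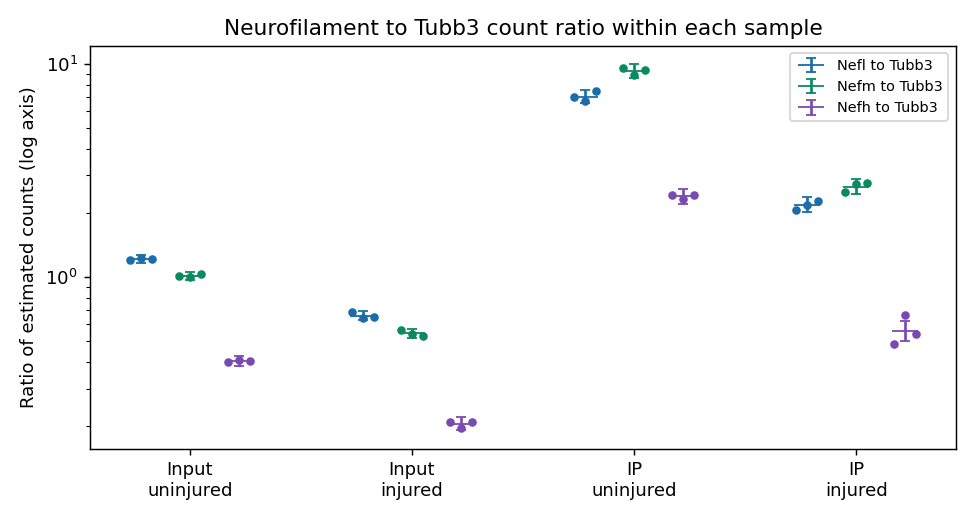
Ratio of the estimated counts of each neurofilament transcript to those of Tubb3 (log axis), with points for single samples and bars for the 95% counting interval of the summed ratio. In both fractions every injured sample lies below every uninjured one, and the IP ratios lie above the input ratios of the same condition.

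The subunits did not move by quite the same amount in IP. The Nefl to Nefh ratio was 2.88, 2.87 and 3.07 in uninjured and 4.25, 3.31 and 4.23 in injured IP samples, 1.33 times as high with injury (1.19 to 1.49). The Nefm to Nefh ratio was 1.23 times as high (1.10 to 1.37), from 3.87 to 4.76. Nefh accordingly made up 12.8% of the summed neurofilament counts in uninjured and 10.4% in injured IP. The Nefl to Nefm ratio was 1.08 times as high (1.01 to 1.16), but the interval reached 1 when uninjured IP sample 1 or 2, or injured IP sample 1 or 3, was left out. In input no ratio between 2 subunits differed with injury beyond its interval. The largest of these was the Nefl to Nefh ratio, at 1.07 (0.978 to 1.18).

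The pulldown enriched the neurofilament transcripts over the input in uninjured ganglia. Under TMM scaling Nefl was 3.45-fold higher in IP (3.33 to 3.59), Nefm 5.45-fold (5.25 to 5.66) and Nefh 3.53-fold (3.31 to 3.77), with no overlap between samples. The 3 subunits were counted as higher, against 21.7% of 10135 compared transcripts. Of all compared transcripts, 17.5% had a higher IP to input ratio than Nefl, 11.1% than Nefm and 17.0% than Nefh. Tubb3 was 1.67-fold lower in IP (1.55 to 1.81), below the 2-fold rule, and 46.1% of compared transcripts had a lower ratio. At 1.5-fold Tubb3 was counted as lower, where 6503 of 10135 transcripts were counted. With the samples as replicates, edgeR called all 4 members here, Tubb3 as lower (adjusted p = 1.2e-06), and 5334 of 9959 transcripts. DESeq2 called 4832 transcripts, among them Tubb3 (adjusted p = 7.0e-07). These p-values measure only the spread between the 3 samples of a group.

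In injured ganglia these ratios were closer to 1 for the neurofilaments. Nefm was 2.38-fold higher in IP than in input (2.25 to 2.51) and was counted as higher, against 18.3% of 9608 compared transcripts. Nefl was 1.61 times as high in IP (1.52 to 1.70) and Nefh 1.33 times (1.19 to 1.48), which did not reach 2-fold. Tubb3 was 2.05-fold lower in IP (1.91 to 2.21) and was counted as lower, against 38.1% of compared transcripts. It lost that count, with log2 ratios of -0.989 and -0.998, when injured input sample 2 or 3 was left out. At 1.5-fold Nefl was counted as well, where 5868 of 9608 transcripts were counted. With the samples as replicates, edgeR called all 4 members in this comparison, as it did 4835 of 9959 transcripts. Its adjusted p was 5.7e-06 for Nefl and 0.0079 for Nefh. DESeq2 called 4127 transcripts, among them all members but Nefh (adjusted p = 0.113).

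The size of any IP to input ratio depends on the scaling. Library totals alone raise every log2 ratio of IP to input by 1.45 in uninjured and 1.64 in injured ganglia. Nefl, Nefm and Nefh were then 9.43-fold, 14.9-fold and 9.65-fold higher in uninjured IP. In injured ganglia Nefl was then 4.99-fold and Nefh 4.13-fold higher in IP, and both were counted as higher there, which they were not with TMM factors. Of all transcripts, 6948 were counted in injured ganglia with library totals alone, and 5421 with TMM factors. Tubb3 changed direction, with log2 ratios of 0.71 in uninjured and 0.60 in injured ganglia in place of -0.74 and -1.04. The order of the genes needs no scaling. In uninjured ganglia the ratio to Tubb3 was 5.78 times as high in IP as in input for Nefl (5.32 to 6.29), 9.13 times for Nefm (8.40 to 9.94) and 5.92 times for Nefh (5.36 to 6.54). In injured ganglia it was 3.30, 4.88 and 2.73 times as high.

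**Figure D5:**
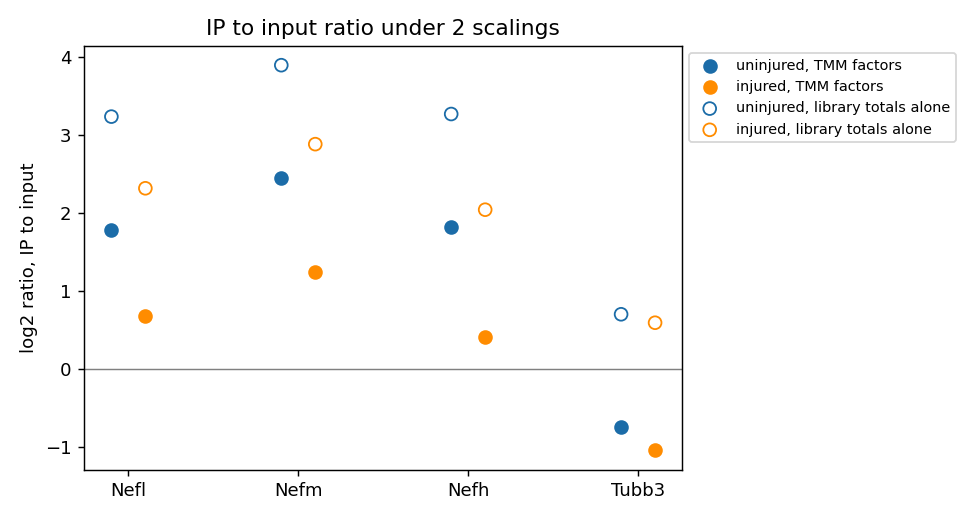
Log2 ratio of IP to input for each transcript in uninjured (blue) and injured (orange) ganglia, with TMM factors (filled) or library totals alone (open). Each neurofilament ratio is lower in injured ganglia under both scalings, and Tubb3 lies below 0 with TMM factors and above 0 with library totals.

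Nefm stood apart from the other subunits in its enrichment. The Nefl to Nefm ratio was 1.20, 1.22 and 1.18 in the uninjured input samples and 0.731, 0.754 and 0.791 in the uninjured IP samples. It was 1.58-fold lower in IP than in input without injury (1.496 to 1.67) and 1.48-fold lower with it (1.36 to 1.60). The Nefm to Nefh ratio was 1.54 times as high in IP in uninjured ganglia (1.43 to 1.66) and 1.79 times in injured ones (1.58 to 2.03). By contrast the Nefl to Nefh ratio was 2.94 in IP and 3.00 in input without injury. This was a change of 0.977 times (0.906 to 1.05) that its interval does not separate from 1. With injury the Nefl to Nefh ratio was 3.90 in IP and 3.22 in input, 1.21 times as high (1.07 to 1.37). Nefl and Nefh were thus alike in enrichment only in uninjured ganglia.

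Across the 4 groups Nefl and Nefh also had the most similar profiles among the members. Likeness was measured as the distance between log2 profiles over the 4 groups, each centred on its own mean, among transcripts with at least 50 counts in every group. Among 1084 candidates Nefh ranked 4 for Nefl, and Nefl ranked 3 for Nefh, at a distance of 0.321. The member closest to Nefm was Nefl, ranked 28 at 0.617, and the member closest to Tubb3 was Nefl, ranked 737 at 2.52. Counting error was not taken into these distances or ranks. The profile closest to that of Nefh was ENSMUST00000113837.9 at 0.140, with 232 and 55 counts in uninjured and injured IP and 173 and 101 in input. The profile closest to that of Nefm was ENSMUST00000094639.10 at 0.196, with 1451 and 497 counts in IP and 815 and 572 in input. For Tubb3 it was ENSMUST00000058714.10 at 0.143, with 166 and 189 counts in IP and 927 and 1020 in input. Gene names for these 3 IDs are not in the files, and the distances describe 4 values per transcript.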

How the data were processed

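RNA of 12 dorsal root ganglion samples was sequenced from nanopore PCR-cDNA libraries, per the labels. The authors deposited 1 table of estimated counts per transcript, some of them fractional. The submitters' processing notes name minimap2, Salmon and the builds GRCm39 and mm39, without roles, versions or settings. The selection rule pairs the 4 member IDs with gene symbols. Of 101744 IDs, 0 matched the gene tables used here, so other transcripts of these genes, other cytoskeletal genes and markers of other cell types were not analysed here. How the authors' quantification divided reads between related tubulin or alternative transcripts was not tested. The members, lists and rules were chosen with earlier results of these data known, and all comparisons were run over the whole table.

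The 3 samples of each group were summed, rounded and treated as 1 sample. This replaces edgeR's count test as the main result, which is among the alternatives. Library sizes were scaled with TMM factors (edgeR 4.0.16, R 4.3.3) from transcripts passing filterByExpr. Intervals are exact conditional (Clopper-Pearson) ones, from Fisher's odds ratio for changes of count ratios, and, by a normal approximation of log ratios, for the difference of injury effects. Transcripts were compared where the higher group reached 10 CPM, and for the difference of effects where all groups had 10 counts. Summed depth was 5055830 counts in uninjured input, 4753793 in injured input, 635927 in uninjured IP and 571897 in injured IP. The rule for named transcripts was the 4 members and, for each, the transcript with the most similar profile, of which at most 2 that fell are printed. Alternatives changed the scaling, the minimum, the fold, the unit of replication (edgeR with and without a replicate block, DESeq2 1.42.0) and the samples kept. The procedures were tested on data simulated with counting noise alone. Spread beyond counting noise and PCR copies were not simulated, so how the procedures perform under them was not tested.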

Additional observations from a re-analysis of the deposited data

Results flagged for a closer look

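Nefl, Nefm and Nefh had injury effects that differed between ribosome-bound RNA and input. The log2 effect in IP minus that in input was -1.10 for Nefl, -1.20 for Nefm and -1.41 for Nefh. In each case the counting interval of the difference excluded 0. With the samples as replicates, edgeR's interaction term gave adjusted p = 2.3e-05, 6.0e-06 and 4.9e-05 in that order, and these measure only the spread between the 3 samples of a group.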

How the results depend on the processing

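With injury in IP, 3 of the 4 members were counted under all 15 alternatives, and the log2 ratios ranged from -1.67 to -1.43 for Nefl, -1.77 to -1.54 for Nefm and -2.13 to -1.82 for Nefh. Tubb3 ranged there from -0.01 to 0.29 and was never counted. With injury in input, where 0 were counted, 1 member was counted at 1.5-fold, 4 by edgeR with and without the replicate block, and 3 by DESeq2, which use no minimum fold. All 4 members kept their direction in input. For IP against input in injured ganglia, where 2 were counted, 3 were with library totals alone (Nefl and Nefh gained, Tubb3 lost), 3 at 1.5-fold and in DESeq2, 1 with TMM factors of the compared groups alone, 4 in edgeR with and without the replicate block, and 1 to 2 with a single sample left out. Tubb3 in that comparison had a log2 ratio of 0.60 with library totals alone. Blocking changed the call of no member in edgeR. Same-numbered samples correlated at r of -0.132 to 0.161 across 1085 transcripts, against -0.220 to 0.255 for others. Across 194 transcripts with at least 50 counts in every sample they ranged from -0.148 to 0.230, against -0.212 to 0.233. Between the IP groups alone that range was -0.018 to 0.230, against -0.149 to 0.112. Counting noise could hide a pairing, so these values do not decide whether the numbers pair the samples. The cause of these moves was not tested, except that a lower fold or none admits smaller differences.

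Over all transcripts, the count for injury in IP moved from 1784 to 912 with the replicate block and 651 in DESeq2. For injury in input it moved from 1469 to 2360 without a minimum, 2483 at 1.5-fold, 900 in edgeR, 614 with the block and 463 in DESeq2. For the difference of effects it moved from 1011 to 2841, 451, 310 and 255 without a minimum, in edgeR, with the block and in DESeq2. With library totals alone, higher transcripts made up 68.4% of those counted for IP against input in uninjured ganglia, 73.7% in injured ganglia and 65.6% for the difference of effects, in place of 36.2%, 32.5% and 49.3%. For injury in input they made up 72.4% in place of 57.9% with TMM factors of those groups alone, and 81.9% in DESeq2. DESeq2 gave 66.5% in place of 50.8% for injury in IP. For the difference of effects edgeR gave 68.1%, the block 69.4% and DESeq2 76.1%. Leaving out the 2 most abundant IP transcripts from the scaling was added after seeing the data and changed no member's count. Depth limits IP most, where Nefh held 485 counts after injury.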
